A study of Canis lupus familiaris with 18 samples.

Results

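The genes described here carry out the unfolded protein response of the endoplasmic reticulum (ER) and the amino acid stress response that joins it. The list names 36 genes. Each was represented by 1 probe set, a group of short array probes for 1 transcript, taken as the one with the highest mean over the 18 arrays among the probe sets with that gene's single symbol. A probe set was chosen for 35 genes, and CRELD2 was not analysed here. Of the 35, 31 passed the filter on low signal (log2 of at least 4 in at least 4 arrays) and were tested, among 8650 genes tested in all. They fall into 4 roles: 15 tested chaperones and folding enzymes, 4 genes of ER-associated degradation, 4 sensors and transcription factors, and 8 targets of the transcription factor ATF4 or genes of amino acid stress.

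The arrays measured RNA of subcutaneous and gonadal fat from 9 intact female beagles aged 4 years, all on the same commercial diet. For 24 weeks 4 control dogs were given the amount of food that held their body weight and stayed lean, and 5 dogs ate ad libitum and became obese. Both depots were taken from each dog after an overnight fast, so the 4 groups are subcutaneous control (dogs 1, 3, 4 and 9), subcutaneous ad libitum (dogs 2, 5, 6, 7 and 8) and the gonadal fat of the same dogs. Gonadal fat and subcutaneous fat may also differ by array batch, since the labels tie the subcutaneous arrays alone to an earlier deposit, and depot and batch cannot be told apart. Each sample was whole fat, in which fewer cells of a type and less RNA per cell cannot be told apart.

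Proteins that are secreted or held in membranes fold in the ER, where chaperones such as HSPA5 bind them and disulfide isomerases join their cysteines. When unfolded proteins build up, the sensors ERN1, EIF2AK3 and ATF6 act: ERN1 splices the RNA of XBP1, ATF6 is cut to release a transcription factor, and both raise the genes of chaperones and of the degradation of misfolded proteins. EIF2AK3 slows protein synthesis and favours translation of ATF4, which a shortage of amino acids does as well through another kinase, and ATF4 raises genes of asparagine, serine and one-carbon metabolism and DDIT3, a factor linked to cell death. In fat tissue both responses have been studied mainly in obesity.

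Signals are on a log2 scale and are compared between samples, never between genes. The markers of adipocytes were high in every array, with a mean over 10 genes of 10.78 to 13.43. In 4 arrays the transcripts of skeletal muscle or of ciliated cells lay at least 3 log2 units above the depot's median: subcutaneous control dogs 3 (muscle) and 4 (both), and gonadal ad libitum dogs 2 (muscle) and 6 (ciliated cells). Results are given with and without these 4 where a call or a direction changed. The actin signal at the 3' end minus that at the 5' end, a measure of RNA shortening, averaged 4.75 ± 1.02 (SD) in subcutaneous control and 3.49 ± 0.77 in subcutaneous ad libitum arrays (exact two-sided permutation p = 0.0873 over 126 regroupings). In gonadal fat it averaged 2.91 ± 0.91 and 3.31 ± 0.91 (exact permutation p = 0.532). Between depots it was higher in subcutaneous fat in each control dog, at 3.42 to 5.72 against 1.91 to 4.03 in gonadal fat. In ad libitum dogs it went both ways, and the depot gap was not tested. The same measure for GAPDH did not separate the subcutaneous groups, at 2.12 to 2.74 in control and 2.33 to 2.70 in ad libitum arrays. Its gonadal values were 1.957 to 2.885 in control and 2.119 to 2.648 in ad libitum arrays, and GAPDH was not tested.

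Among the 31 tested genes the mean signal ran from 4.62 to 13.11, and the SD within groups from 0.16 to 1.29 with a median of 0.37. The gap between the highest and the lowest of the 18 arrays ran from 0.55 to 5.45. One array stood out: subcutaneous fat of control dog 1 held the highest of all 18 values for 10 of the 31 genes, among them HSPA5, SDF2L1, MANF and DDIT3. The gonadal array of control dog 3 held the lowest value for 7 genes. The other 4 genes with a probe set, the sensor ERN1, the pseudokinase TRIB3, the glutathione-degrading enzyme CHAC1 and the leucine-sensing protein SESN2, lay below the floor of log2 4 in every array, with 1 exception for CHAC1. ERN1 ran from 2.33 to 2.66, SESN2 from 2.06 to 3.90 and TRIB3 from 1.89 to 3.42. CHAC1 reached 5.42 in subcutaneous fat of ad libitum dog 2 and 3.44 or less in the other 17 arrays.

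**Figure D1:**
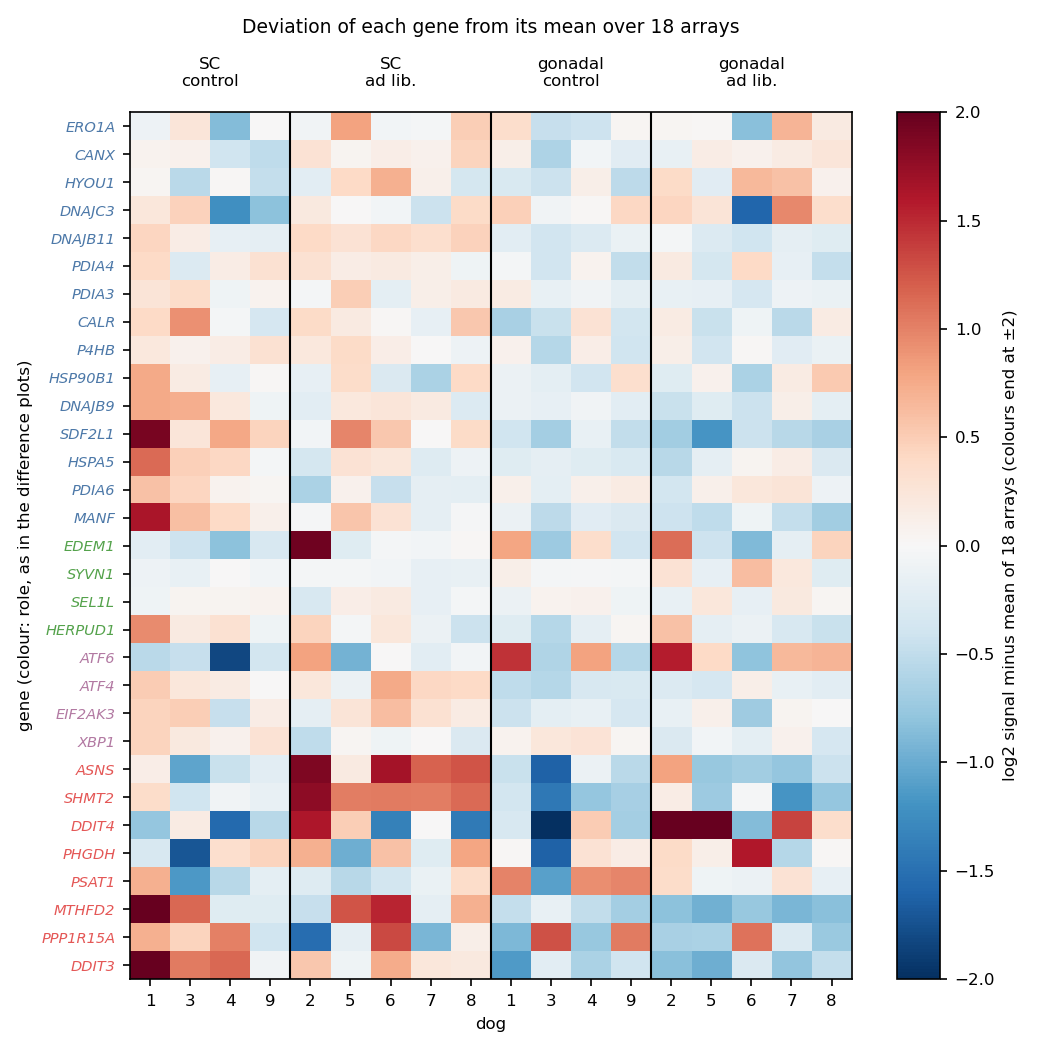
Log2 signal of each of the 31 tested genes minus that gene's mean over 18 arrays, with 1 column per array (numbers are dogs) and gene names coloured by role; red is above the gene's mean, blue below, and colours end at ±2. ASNS and SHMT2 are red across the 5 subcutaneous ad libitum arrays, and the subcutaneous array of control dog 1 is red for many chaperones and for DDIT3.

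With ad libitum feeding, 2 of the 31 genes rose in subcutaneous fat and 0 fell. Both make amino acids or one-carbon units: ASNS, asparagine synthetase, and SHMT2, the mitochondrial enzyme that splits serine into glycine and a one-carbon unit. Across all 8650 genes 1.97% rose and 0.347% fell in this comparison. No chosen probe set of an ER chaperone was called. Of 15 chaperones and folding enzymes 5 had a positive difference, against 50.1% of all genes, and 0 of the 15 passed by limma, with 5 at an unadjusted p under 0.05. Both statements depend on the choice of probe set. With the mean of a gene's probe sets 7 of the 15 were positive, and a second probe set of CANX was called higher (0.50, adjusted p = 0.0383).

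ASNS had signals of 9.13, 7.94, 8.55 and 8.79 in subcutaneous fat of control dogs 1, 3, 4 and 9. In ad libitum dogs 2, 5, 6, 7 and 8 they were 10.87, 9.18, 10.66, 10.17 and 10.26. Every ad libitum value lay above every control value, though dog 5 lay just above control dog 1. The difference was 1.63 ± 0.40 on the log2 scale (± standard error, 95% interval 0.79 to 2.47), a 3.09-fold rise, with an adjusted p of 0.0447 by limma. SHMT2 had signals of 8.15, 7.38, 7.71 and 7.64 in the control dogs and 9.56, 8.80, 8.81, 8.80 and 8.91 in the ad libitum dogs. The groups did not overlap, and dog 2 was the highest. SHMT2 rose by 1.26 ± 0.28 (95% interval 0.67 to 1.85), 2.39-fold, with an adjusted p of 0.0331 by limma. Over all genes 6.13% had groups that did not overlap with the ad libitum dogs higher.

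Other probe sets of these enzymes gave like differences. The other 2 probe sets of ASNS differed by 1.71 (adjusted p = 0.043) and 1.97 (adjusted p = 0.0421), and the second of SHMT2 by 1.73 (adjusted p = 0.0183). That of SHMT2 had a mean signal of 4.12 over the 18 arrays, near the floor. A probe set at that level can pass the filter through its high group alone, so it is not separate support. The calls of the chosen probe sets of ASNS and SHMT2 were close to the threshold. Without the 4 arrays high in muscle or cilia transcripts ASNS differed by 1.27 (adjusted p = 0.223) and SHMT2 by 1.08 (adjusted p = 0.156), and with the actin signal as a covariate by 1.46 (adjusted p = 0.235) and 1.30 (adjusted p = 0.153). When 1 dog was left out, ASNS passed without dog 5 (1.89, adjusted p = 0.00964) and missed without any of dogs 1, 2, 3, 4, 6, 7, 8 and 9 (1.41 to 1.81, adjusted p 0.066 to 0.128). SHMT2 passed without dog 5 or dog 6 and missed without any of the other 7 (1.11 to 1.40, adjusted p 0.0697 to 0.106).

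**Figure D2:**
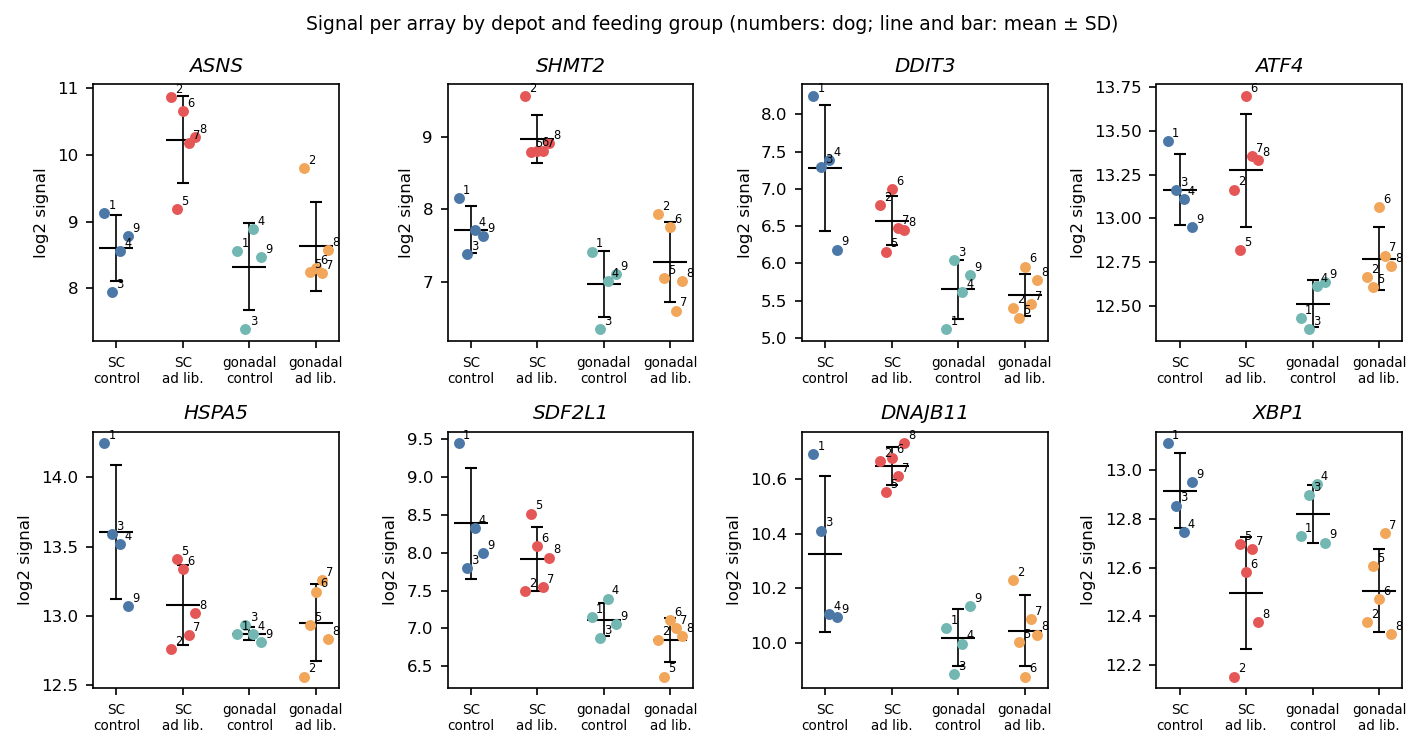
Log2 signal per array for 8 genes in the 4 depot-by-feeding groups (SC is subcutaneous); each point is 1 dog, numbered, and the line and bar are the group mean ± SD. For ASNS the subcutaneous ad libitum dogs span 9.18 to 10.87 and the subcutaneous control dogs 7.94 to 9.13, while for DDIT3 all gonadal values lie at or below 6.04.

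Markers of adipocytes moved with the feeding groups in subcutaneous fat. All 10 had a positive difference, with a median of 0.92, and 2 passed, LEP and DGAT2. Their mean signal ran from 10.78 to 12.12 in the control arrays and from 11.36, in dog 5, to 13.43 in the ad libitum arrays. Of 9 genes of fibroblasts and matrix 1 had a positive difference and 1 fell, FBLN1, with a median of -0.54. All 9 muscle genes tested had a negative difference, with a median of -3.51, and 0 passed by limma, with 3 at an unadjusted p under 0.05. The part of these cell types in the rise of ASNS and SHMT2 was not tested.

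Of the 8 ATF4 targets and amino acid stress genes tested, 5 had a positive difference in subcutaneous fat, with a median of 0.29, or -0.15 without the 4 arrays with other transcripts. Without ASNS and SHMT2 the count was 3 of 6 and the median -0.066, and 0 of these 6 passed by limma, with DDIT3 at an unadjusted p under 0.05. Whether they differ from ASNS and SHMT2 was not tested. DDIT3 had signals of 8.24, 7.29, 7.39 and 6.18 in the control dogs and 6.79, 6.16, 7.00, 6.48 and 6.45 in the ad libitum dogs. The groups overlapped, with control dog 9 near the bottom of the ad libitum dogs, and the difference was -0.70 ± 0.31 (adjusted p = 0.189). PSAT1 and PHGDH, which make serine from a glycolysis intermediate, differed by 0.10 ± 0.40 and 0.48 ± 0.54, and the 95% interval of PHGDH, -0.65 to 1.61, includes the rise of SHMT2. MTHFD2, the mitochondrial one-carbon enzyme next to SHMT2, differed by -0.24 ± 0.49. DDIT4, an inhibitor of the growth kinase mTORC1, differed by 0.55 ± 0.80, with a 95% interval of -1.14 to 2.24 that includes the rises of both. PPP1R15A, the phosphatase subunit that restarts protein synthesis, differed by -0.68 ± 0.58.

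Among the sensors and transcription factors 0 of 4 passed by limma, and XBP1 alone had an unadjusted p under 0.05. ATF4 had signals of 13.44, 13.16, 13.11 and 12.95 in the control dogs and 13.16, 12.82, 13.70, 13.36 and 13.34 in the ad libitum dogs. These overlapped, and the difference was 0.11 ± 0.16 (adjusted p = 0.715). XBP1 had 13.11, 12.86, 12.75 and 12.95 in the control dogs and 12.15, 12.70, 12.58, 12.68 and 12.38 in the ad libitum dogs. Every ad libitum value of XBP1 lay below every control value, as for 4.34% of all genes, but the difference of -0.42 ± 0.14 did not pass (adjusted p = 0.101). The array reads total XBP1 RNA here, and its spliced form was not analysed. ATF6 and EIF2AK3 differed by 0.72 ± 0.50 and 0.08 ± 0.21.

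The chaperone with the smallest p was PDIA6, a disulfide isomerase. Its signals were 13.51, 13.36, 13.01 and 12.96 in the control dogs and 12.29, 13.02, 12.47, 12.76 and 12.74 in the ad libitum dogs. Dog 5 overlapped the controls, and the difference was -0.55 ± 0.18 (adjusted p = 0.0923). HSPA5, the main ER chaperone and a repressor of all 3 sensors, had 14.24, 13.59, 13.52 and 13.07 in the control dogs and 12.76, 13.41, 13.34, 12.86 and 13.02 in the ad libitum dogs. Its groups overlapped too, with a difference of -0.53 ± 0.21 (adjusted p = 0.151). MANF, a secreted ER-stress protein, differed by -0.56 ± 0.25, and DNAJB11, a cochaperone of HSPA5, by 0.32 ± 0.13. Among the genes of ER-associated degradation the differences ran from -0.32 (HERPUD1) to 0.76 (EDEM1, a lectin for misfolded glycoproteins), and 0 of 4 passed by limma, at either threshold. At an unadjusted p under 0.05 there were 9 of the 31 genes, against 23.7% of all genes.

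**Figure D3:**
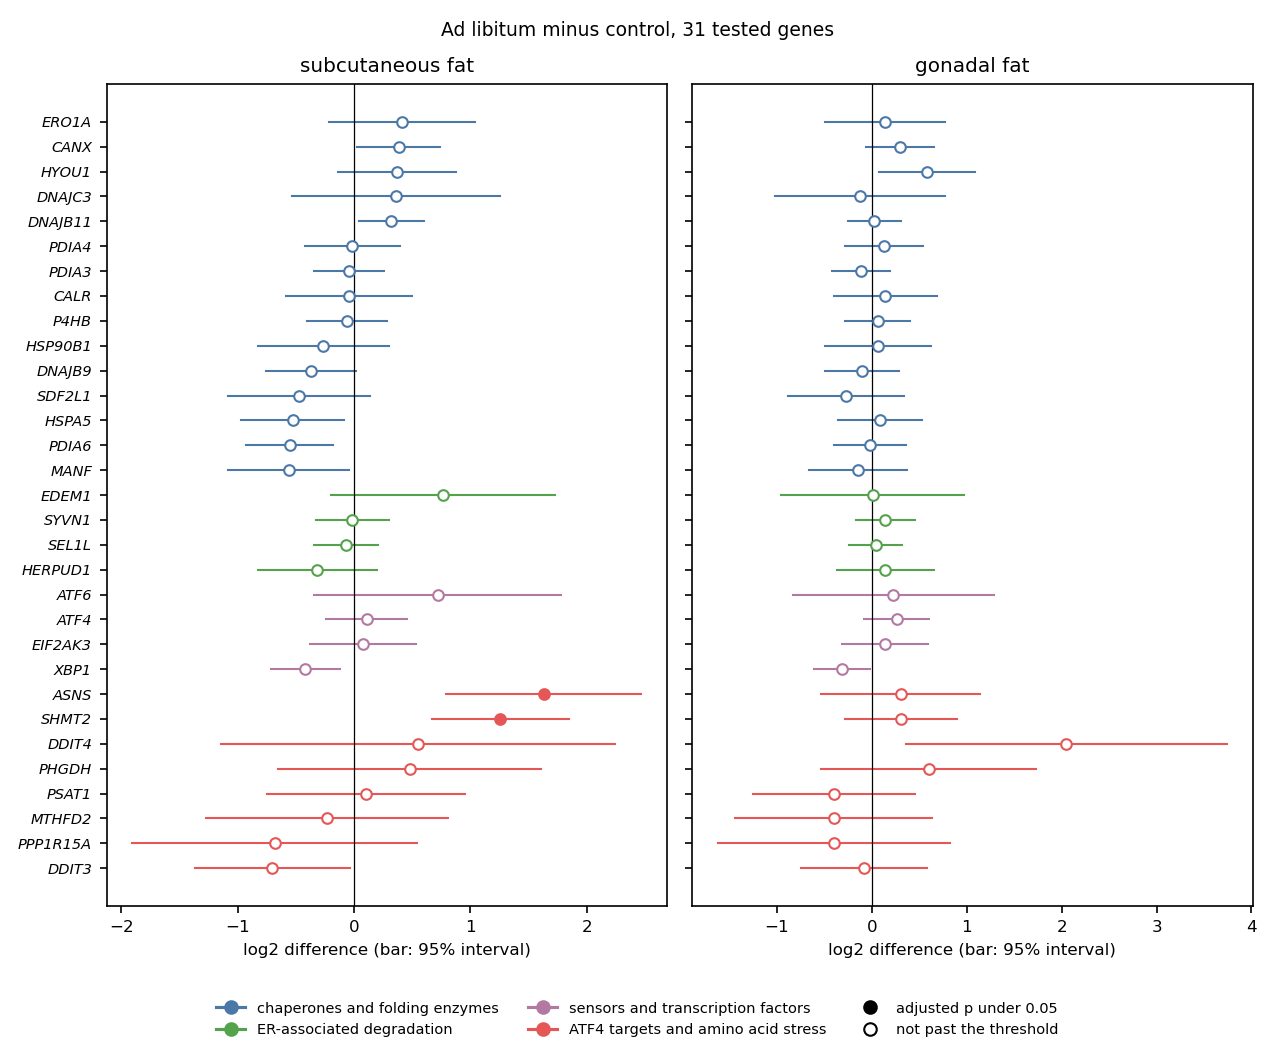
Log2 difference, ad libitum minus control, with its 95% interval for the 31 tested genes in subcutaneous fat (left) and gonadal fat (right), coloured by role; filled points have an adjusted p under 0.05. ASNS (1.63) and SHMT2 (1.26) in subcutaneous fat are the 2 filled points, and the chaperones lie on both sides of 0.

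The 6 further lists of the pathway gave 1 call for feeding in subcutaneous fat. ALDH1L2, a mitochondrial folate enzyme that uses one-carbon units, rose by 1.61 ± 0.36 (adjusted p = 0.0347), from a mean of 7.93 to 9.54, and its groups did not overlap. It was the only one of 17 other ATF4 targets and amino acid supply genes to pass. XPOT, which exports transfer RNA from the nucleus, differed by 0.55 ± 0.15 (adjusted p = 0.0563), NUPR1, a stress-induced cofactor, by -0.90 ± 0.24 (adjusted p = 0.0582), and SLC38A2, a transporter of neutral amino acids, by 1.17 ± 0.42 (adjusted p = 0.123). Of 18 aminoacyl-tRNA synthetases 13 had a positive difference and 0 passed by limma, also at an unadjusted p under 0.05. TARS1, SARS1 and YARS1 differed by 0.46, 0.41 and 0.39.

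The genes that bring proteins into the ER and carry them out had a median difference of 0.21, with 33 of 44 positive and 14 at an unadjusted p under 0.05, but 0 of 44 passed by limma. Over all genes 50.1% were positive and 23.7% had an unadjusted p under 0.05 in this comparison, the background for the counts of each list. KDELR3, the receptor that returns escaped chaperones to the ER, differed by 0.48 ± 0.13 (adjusted p = 0.0576). SEC61G, part of the channel into the ER, differed by 0.43 ± 0.13, and SAR1B, which starts the export coat, by 1.11 ± 0.34. Among 30 other folding and degradation genes the median was 0.069 and 0 passed by limma, 1 of them at an unadjusted p under 0.05, with ERP29, FKBP14 and UBE2J1 at 0.66, 0.72 and 0.56. Among 19 other sensors and eIF2 factors 0 passed by limma, and 6 had an unadjusted p under 0.05. MBTPS2, the protease that cuts ATF6, differed by 0.67 ± 0.20 (adjusted p = 0.077), EIF2AK4, the amino acid sensor upstream of ATF4, by -0.51 ± 0.16 and CREB3L1 by 0.45 ± 0.17. Of 17 cytosolic heat shock genes 5 had a positive difference, 6 had an unadjusted p under 0.05 and 0 passed by limma, with HSPB1, HSF2 and HSP90AA1 at -0.34, -0.86 and -0.67.

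In gonadal fat 0 of the 31 genes passed for feeding by limma, and 0% of all 8650 genes did. At an unadjusted p under 0.05 there were 3 of the 31 genes, DDIT4, HYOU1 and XBP1, against 2.4% of all genes. ASNS had signals of 8.56, 7.38, 8.89 and 8.47 in the control dogs and 9.80, 8.24, 8.30, 8.23 and 8.57 in the ad libitum dogs. Dog 2 stood above the others, the rest overlapped, and the difference was 0.30 ± 0.40. SHMT2 had 7.42, 6.35, 7.01 and 7.11 in the control dogs and 7.93, 7.06, 7.76, 6.61 and 7.01 in the ad libitum dogs. These overlapped as well, with a difference of 0.30 ± 0.28.

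DDIT4 had gonadal signals of 6.47, 4.21, 7.30 and 6.11 in the control dogs and 9.51, 9.65, 5.92, 8.14 and 7.14 in the ad libitum dogs. Dogs 2, 5 and 7 lay above all control dogs and dogs 6 and 8 among them, and the difference was 2.05 ± 0.80 (unadjusted p = 0.0207, adjusted p = 1.00 by limma). Its probe set is of a type whose probes can also match other transcripts, and a second one, not of that type, correlated with it at 0.988 over the 18 arrays and differed by 1.65 (adjusted p = 1.00). HYOU1, a chaperone that works with HSPA5, had 4.31, 4.19, 4.73 and 4.09 in the control dogs and 5.00, 4.38, 5.26, 5.20 and 4.71 in the ad libitum dogs. Its values overlapped near the floor, with a difference of 0.58 ± 0.24 (unadjusted p = 0.0278, adjusted p = 1.00 by limma). XBP1 had 12.73, 12.90, 12.94 and 12.70 in the control dogs and 12.38, 12.61, 12.47, 12.74 and 12.33 in the ad libitum dogs. Dog 7 alone overlapped the control dogs, and the difference was -0.31 ± 0.14 (unadjusted p = 0.0385). ATF4, HSPA5 and DDIT3 differed by 0.26, 0.08 and -0.08 in gonadal fat. MTHFD2 was the 1 member whose gonadal groups did not overlap, as for 0.532% of all genes with the ad libitum dogs lower, at 3.88 to 4.08 against 4.16 to 4.68 in the control dogs (-0.40 ± 0.49), where the mean of the ad libitum dogs was under the floor.

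The feeding response itself was compared between the depots, as the gonadal difference minus the subcutaneous one. No member passed by limma (0 of 31, 0% of all genes), and 3 of 31 had an unadjusted p under 0.05, against 6.32% of all genes. These were SHMT2 at -0.95 ± 0.40 (95% interval -1.79 to -0.12), ASNS at -1.33 ± 0.56 (95% interval -2.52 to -0.14) and PDIA6 at 0.53 ± 0.25, each with an adjusted p of 0.748. So the rise of ASNS and SHMT2 in subcutaneous fat is not shown to differ from the gonadal difference at the adjusted threshold. The values for HSPA5 and DDIT3 were 0.61 ± 0.30 and 0.62 ± 0.44.

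Between depots the members that changed were lower in gonadal fat in both feeding groups. In control dogs 0 of 31 genes were higher and 2 were lower, DDIT3 and SDF2L1, a part of the ER chaperone complex. In ad libitum dogs 0 were higher and 4 were lower: SHMT2, DNAJB11, ASNS and SDF2L1. Of all genes 1.8% were lower and 1.14% higher in control dogs, and 4.75% were lower and 2.71% higher in ad libitum dogs. The median difference of the 31 genes was -0.28 in control dogs, against 0.015 over all genes, and -0.21 in ad libitum dogs, against -0.016. With the mean of a gene's probe sets the members' median was -0.13 in control and -0.21 in ad libitum dogs. Without dog 1 it was -0.20 in control dogs. At an unadjusted p under 0.05 there were 11 of 31 members in control dogs, against 19.6% of all genes, and 8 of 31 in ad libitum dogs, against 24.5%. Both comparisons use arrays that also enter the feeding comparisons. These depot counts come from the fit of group means without a term for the dog, although both depots were taken from each dog. With the dog as a random block 5 of the 31 members were called lower in control dogs and 7 in ad libitum dogs.

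In control dogs DDIT3 had gonadal signals of 5.12, 6.04, 5.62 and 5.84 in dogs 1, 3, 4 and 9, beside 8.24, 7.29, 7.39 and 6.18 in their subcutaneous fat. The depots did not overlap, and dog 9 had the smallest gap. DDIT3 fell by 1.62 on the log2 scale, with a standard error of 0.33 (adjusted p = 0.0153 by limma), so it was 3.08-fold lower in gonadal fat. SDF2L1 had 7.15, 6.86, 7.39 and 7.05 in gonadal and 9.45, 7.79, 8.32 and 8.00 in subcutaneous fat. Its depots did not overlap, and the difference was -1.27 ± 0.31 (adjusted p = 0.0348), 2.42-fold lower. Its 2 other tested probe sets also passed, at -1.72 (adjusted p = 0.0148) and -1.39 (adjusted p = 0.0426).

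The next members in control dogs were ATF4, MANF and HSPA5, and for these 3 the depots did not overlap either, as for 8.14% of all genes with gonadal fat lower. ATF4 had 12.43, 12.36, 12.61 and 12.64 in gonadal fat, all below its subcutaneous values of 12.95 to 13.44, and differed by -0.66 ± 0.17 (adjusted p = 0.0517). MANF had 9.88, 9.47, 9.78 and 9.71 in gonadal and 11.63, 10.60, 10.40 and 10.10 in subcutaneous fat, and differed by -0.97 ± 0.26 (adjusted p = 0.0523). HSPA5 had 12.87, 12.93, 12.87 and 12.81 in gonadal fat, a narrow range below its subcutaneous values of 13.07 to 14.24, and differed by -0.74 ± 0.22 (adjusted p = 0.0789). With the dog as a random block 5 members were lower, with ATF4 (adjusted p = 0.0225), MANF (adjusted p = 0.024) and HSPA5 (adjusted p = 0.04) added, and as a fixed block 4, without HSPA5. ASNS and XBP1 differed by -0.28 ± 0.42 and -0.10 ± 0.15.

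Subcutaneous control dog 1 and the arrays high in muscle transcripts bear on these calls. Without dog 1 DDIT3 differed by -1.12 (adjusted p = 0.111) and SDF2L1 by -0.93 (adjusted p = 0.144), and 0 members passed. DDIT3 also missed without dog 3 (-1.75, adjusted p = 0.0616) or dog 4 (-1.57, adjusted p = 0.0754), and SDF2L1 without any of dogs 3, 4, 7, 8 and 9 (adjusted p 0.0592 to 0.0832). Without the 4 arrays high in muscle or cilia transcripts DDIT3 differed by -1.56 (adjusted p = 0.111) and SDF2L1 by -1.61 (adjusted p = 0.0544). With the actin signal as a covariate the values were -1.55 (adjusted p = 0.099) and -1.09 (adjusted p = 0.197). That actin measure was itself higher in subcutaneous than in gonadal fat in each control dog.

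In ad libitum dogs SHMT2 had gonadal signals of 7.93, 7.06, 7.76, 6.61 and 7.01 in dogs 2, 5, 6, 7 and 8, beside 9.56, 8.80, 8.81, 8.80 and 8.91 in subcutaneous fat. The depots did not overlap. SHMT2 differed by -1.70 ± 0.26 (adjusted p = 0.00135 by limma), 3.26-fold lower in gonadal fat, and it passed in all 11 alternative settings and without each of the 9 dogs. ASNS had 9.80, 8.24, 8.30, 8.23 and 8.57 in gonadal and 10.87, 9.18, 10.66, 10.17 and 10.26 in subcutaneous fat. It was lower in gonadal fat in 5 of 5 dogs, although gonadal dog 2 lay above subcutaneous dog 5, and differed by -1.60 ± 0.38 (adjusted p = 0.0173), 3.04-fold lower. ASNS missed without dog 6 (-1.41, adjusted p = 0.0685), dog 7 (-1.52, adjusted p = 0.0799) or dog 8 (-1.58, adjusted p = 0.0785).

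The 2 folding genes called in ad libitum dogs moved the same way. DNAJB11 had 10.23, 10.00, 9.88, 10.09 and 10.03 in gonadal and 10.66, 10.55, 10.68, 10.61 and 10.73 in subcutaneous fat. Both depots were tight and apart, and the difference was -0.60 ± 0.12 (adjusted p = 0.00872), or -0.58 without dog 8 (adjusted p = 0.0567). SDF2L1 had 6.85, 6.36, 7.11, 7.00 and 6.90 in gonadal and 7.50, 8.52, 8.08, 7.55 and 7.94 in subcutaneous fat. Its depots were apart as well, with a difference of -1.07 ± 0.27 (adjusted p = 0.0267), and it missed without dog 5 (-0.80, adjusted p = 0.130), dog 6 (-1.10, adjusted p = 0.0566), dog 7 (-1.20, adjusted p = 0.0585) or dog 8 (-1.08, adjusted p = 0.0968). SHMT2, ASNS, DNAJB11 and SDF2L1 all passed without the 4 arrays high in other transcripts (adjusted p 0.000975 to 0.0449) and with the actin covariate (adjusted p 0.00178 to 0.0257).

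DDIT3 had gonadal signals of 5.41, 5.27, 5.96, 5.46 and 5.77 in the ad libitum dogs, all below its subcutaneous values of 6.16 to 7.00, and differed by -0.999 ± 0.296 (adjusted p = 0.0509). ATF4 had 12.67, 12.61, 13.06, 12.79 and 12.72 in gonadal and 13.16, 12.82, 13.70, 13.36 and 13.34 in subcutaneous fat, and differed by -0.50 ± 0.16 (adjusted p = 0.0591). MTHFD2 had 4.01, 3.88, 4.08, 3.92 and 4.00 in gonadal fat, at the floor, and 4.37, 6.10, 6.36, 4.66 and 5.55 in subcutaneous fat (adjusted p = 0.0724). With the dog as a random block these 3 passed too, 7 members in all (adjusted p = 0.03 for DDIT3, 0.0283 for ATF4 and 0.0395 for MTHFD2). Of the 11 alternative settings DDIT3 missed in 4 and ATF4 in 7, and each passed in the rest. When 1 dog was left out DDIT3 passed in 2 fits and ATF4 in 0. The depots did not overlap for 5 members with gonadal fat lower, SHMT2, DNAJB11, SDF2L1, DDIT3 and MTHFD2, and for 5.45% of all genes. HSPA5 and XBP1 differed by -0.13 ± 0.20 and 0.007 ± 0.132.

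**Figure D4:**
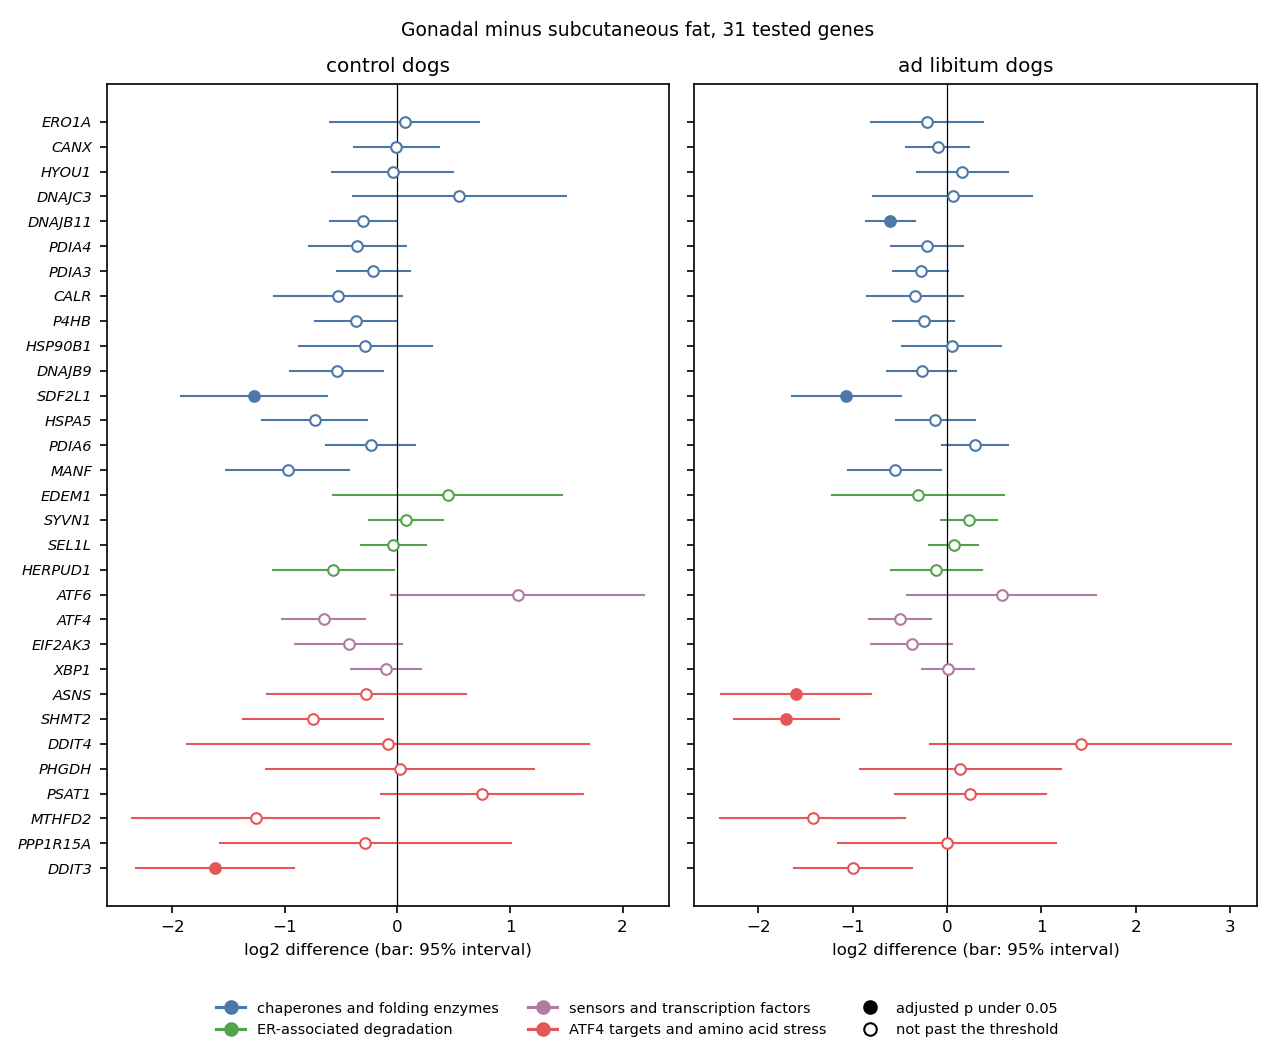
Log2 difference, gonadal minus subcutaneous, with its 95% interval for the 31 tested genes in control dogs (left) and ad libitum dogs (right), coloured by role; filled points have an adjusted p under 0.05. All filled points lie left of 0: DDIT3 (-1.62) and SDF2L1 in control dogs, and SHMT2 (-1.70), ASNS, SDF2L1 and DNAJB11 in ad libitum dogs.

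Within dogs, 7 genes were lower in gonadal than in subcutaneous fat in 9 of 9 dogs, 7 of the 31 tested members beside 5.51% of all genes. They were SDF2L1, MANF and P4HB among the folding genes, ATF4 itself, and DDIT3, SHMT2 and MTHFD2 among its targets. The median within-dog difference was -0.94 for SDF2L1, -0.63 for MANF, -0.11 for P4HB, -0.57 for ATF4, -1.04 for DDIT3, -1.05 for SHMT2 and -1.30 for MTHFD2. For P4HB the difference was as small as -0.016 in 1 dog. Its other probe sets differed by 0.126 and 0.01 for depot in control dogs and by -0.164 and -0.226 in ad libitum dogs. Another 7 genes were lower in 8 of 9 dogs, among them HSPA5, CALR, DNAJB11 and ASNS, which makes 14 of 31 lower in at least 8 dogs beside 15.1% of all genes. Not all members went that way. PSAT1 was lower in gonadal fat in 1 of 9 dogs, and PDIA6 and DDIT4 in 2 of 9, both in control dogs. The 4 genes of ER-associated degradation had a median depot difference of 0.022 in control dogs and -0.022 in ad libitum dogs.

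The other lists of the pathway did not share 1 depot direction. In control dogs the median difference, gonadal minus subcutaneous, was -0.13 over 30 other folding and degradation genes, -0.056 over 44 translocation and export genes, -0.16 over 18 tRNA synthetases, -0.023 over 19 sensors and eIF2 factors and -0.29 over 17 cytosolic heat shock genes, but 0.31 over 17 other ATF4 targets, against 0.015 over all genes. In ad libitum dogs these medians were, in the same order of lists, -0.29, -0.14, -0.28, -0.034, 0.027 and 0.073, against -0.016 over all genes. In control dogs the genes called lower were KDELR3 (-0.65, adjusted p = 0.0165), 1 of 44 translocation and export genes, and HSPA8 (-1.18), HSPA4 (-1.01) and HSPH1 (-2.81), 3 of 17 heat shock genes, beside 1.8% of all genes. The other 4 lists had 0 calls by limma there, and 8 of 30 folding and degradation genes, 4 of 17 ATF4 targets, 3 of 18 tRNA synthetases and 2 of 19 sensors had an unadjusted p under 0.05, beside 19.6% of all genes. In ad libitum dogs the share called lower was 4.75% of all genes. Beside it stood 2 of 44 translocation and export genes, KDELR3 (-0.87, adjusted p = 0.000614) and TMED9 (-0.54), and 4 of 30 folding and degradation genes, SELENOS (-0.60), DNAJC1 (-0.64), OS9 (-0.46) and ERP29 (-0.95). The others called lower were ALDH1L2 (-1.19, adjusted p = 0.0468) and XPOT (-0.47) of 17 ATF4 targets, CARS1 (-0.83) of 18 tRNA synthetases, and CREB3L1 (-0.79) and EIF2B3 (-0.69) of 19 sensors and eIF2 factors. Of 17 heat shock genes 0 were called by limma in ad libitum dogs, with 4 at an unadjusted p under 0.05, and no gene of these 6 lists was called higher in gonadal fat in either group.

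Cell type markers differed between depots as well. All 10 adipocyte genes had a positive difference in control dogs, with a median of 0.74, and 4 of 10 in ad libitum dogs, with a median of -0.072, and 0 passed by limma in either group, also at an unadjusted p under 0.05. All 10 macrophage genes had negative differences in both feeding groups, with medians of -0.95 and -0.81, and MSR1 and TYROBP fell in ad libitum dogs. Their mean signal ran from 7.87 to 9.88 in subcutaneous and from 6.82 to 8.16 in gonadal arrays. COL1A1 fell in both feeding groups among 9 genes of fibroblasts and matrix, which had medians of -0.61 and -0.21. Of 5 mesothelium genes 4 were higher in gonadal fat of ad libitum dogs, with a median of 4.39, and the median in control dogs was 2.50. The lowest of the 5 differences was negative, at -2.325 in ad libitum and -1.151 in control dogs. Their mean signal was 7.69 in subcutaneous fat of control dog 4, an array also high in muscle and cilia transcripts. It was 3.62 to 4.30 in the other subcutaneous arrays and 6.315 to 9.322 in gonadal arrays. All 9 muscle genes had a negative difference in control dogs, with a median of -4.16, and 8 of 9 a positive one in ad libitum dogs, with a median of 1.18. Of 10 plasma and B cell genes, whose secretory cells hold much ER, 6 had a probe set and 1 was tested, JCHAIN, and the mean of the 6 stayed between 3.51 and 4.12 in all 18 arrays. The part of these cell types in the depot differences was not tested.

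Chaperones and ATF4 targets were set side by side in each array, as the mean over the genes of a role of the signal minus its mean over the 18 arrays. The 15 chaperones and folding enzymes averaged 0.18 in subcutaneous control, 0.11 in subcutaneous ad libitum, -0.17 in gonadal control and -0.12 in gonadal ad libitum arrays. The 8 ATF4 targets averaged 0.067, 0.37, -0.37 and -0.12. The higher mean of the ATF4 targets in subcutaneous ad libitum arrays includes ASNS and SHMT2, the 2 members called there for feeding. Leaving out the genes with the largest rises lowers the difference between feeding groups whatever the others do. The other 6, set apart after their values were seen, averaged 0.17 in subcutaneous control and 0.084 in subcutaneous ad libitum arrays. For that reason their order is not compared with that of the chaperones. For ATF4 targets the control arrays of dogs 1, 3, 4 and 9 stood at 0.68, -0.19, -0.05 and -0.17, and the ad libitum arrays of dogs 2, 5, 6, 7 and 8 at 0.53, 0.14, 0.64, 0.12 and 0.39. Dog 1 was thus the highest of all, and the other 3 control dogs were below every ad libitum dog. Of these, dogs 3 and 4 are among the 4 arrays high in muscle or cilia transcripts. Without those 4 arrays the feeding difference of the 8 targets had a median of -0.15, with 4 of 8 positive. For chaperones the control arrays stood at 0.58, 0.27, -0.05 and -0.08 and the ad libitum arrays at 0.00, 0.35, 0.12, -0.06 and 0.14.

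**Figure D5:**
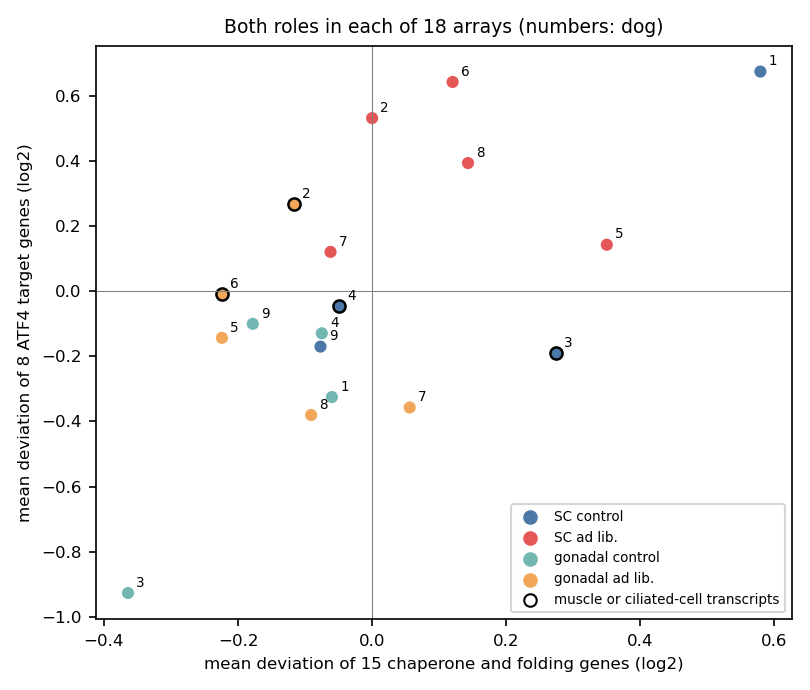
Mean deviation of 8 ATF4 target genes (vertical, log2) against that of 15 chaperone and folding genes (horizontal, log2), 1 point per array, numbered by dog and coloured by group, with the 4 arrays high in muscle or cilia transcripts ringed. Subcutaneous control dog 1 lies at the top right (0.58 and 0.68) and gonadal control dog 3 at the bottom left (-0.36 and -0.93).

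Several members had more than 1 probe set, and these did not always move together. Over 22 genes 41 further probe sets were tested, and their correlation with the chosen one over the 18 arrays, which share these libraries, ran from -0.13 for CALR to 0.99 with a median of 0.86. For feeding in subcutaneous fat 33 of 41 had the sign of the chosen probe set, for depot 26 of 41 in control and 34 of 41 in ad libitum dogs. One of them changed what is seen for CANX, a membrane chaperone of glycoproteins. Its chosen probe set differed by 0.38 for feeding in subcutaneous fat (adjusted p = 0.184) and by -0.10 for depot in ad libitum dogs (adjusted p = 0.752). A second of nearly the same mean signal gave 0.50 (adjusted p = 0.0383) and -0.59 (adjusted p = 0.00439). For depot in ad libitum dogs a further probe set of ASNS (-1.305, adjusted p = 0.0842) and of SDF2L1 (-1.053, adjusted p = 0.0515) missed by limma. Another of ASNS (-1.602, adjusted p = 0.0207) and of SDF2L1 (-1.346, adjusted p = 0.0167) passed. The CALR probe set at -0.13 had nearly the mean signal of the chosen one and differed by 0.08, against -0.34, neither of them called.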

How the data were processed

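The authors deposited GCRMA expression values, per the submitters' processing notes, on a scale read here as log2 from their range of 0.68 to 16.51. Not given in the sources used here are the log base, the GCRMA version, its options and any date of scanning. Per the labels' protocols, Trizol RNA was labelled as biotinylated cRNA in 1 cycle. Probe sets numbered 43035, with 111 controls. The platform annotation gave 1 symbol to 29254, several to 439 and none to 13231. No 2 arrays were identical.

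R 4.3.3 with limma 3.58.1 fitted 4 group means over all 18 arrays and 21484 probe sets (14 residual degrees of freedom, 2.54 added by moderation). Tests were two-sided with Benjamini-Hochberg adjustment over all of them, threshold 0.05. The fit was tested on simulated data. A group mean under log2 4 lies below the floor. The number of dogs, 4 and 5, limits the precision.

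Dogs pair the depots, since the labels give both samples the same animal number. The correlation of a dog's deviations between depots ran from -0.05 to 0.53 over dogs, and the block correlation in limma was 0.168. For dogs 1, 4, 5, 6 and 9 the gonadal array of some other dog correlated better than the dog's own. The gap was widest for dog 4, at -0.05 with its own and 0.65 with another dog's. The pairing thus rests on the labels.

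Named genes are members past the threshold in any comparison, ASNS, DDIT3, ATF4, XBP1 and HSPA5, the 3 members with the smallest p per comparison, and, of other lists, genes past the threshold and up to 3 more with the smallest p for feeding in subcutaneous fat. Other values stand where a count needs them, and were chosen after they were seen. The members, lists and roles were chosen with earlier results of these data known. Alternatives were the filter, the scaling, the moderation, the arrays in the fit, the dog as a block, the mean over a gene's probe sets, leaving out 4 arrays, the actin covariate and leaving out each dog.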

Additional observations from a re-analysis of the deposited data

Results flagged for a closer look

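In each group of 4 or 5 arrays, the highest and the lowest value of each tested member was set against Dixon's critical value for a single value that stands apart. Of 124 gene and group pairs 11 passed, and chance gives about 1 in 20. In subcutaneous control fat SEL1L was low in dog 1 (10.53, next 10.67) and ATF6 low in dog 4 (3.19, next 4.46). In subcutaneous ad libitum fat dog 2 was high for EDEM1 (6.60, next 4.67) and SHMT2 (9.56, next 8.91). In gonadal control fat SYVN1 was high in dog 1 (6.79, next 6.65), and dog 3 was low for both serine synthesis genes, PSAT1 (7.93, next 9.94) and PHGDH (10.06, next 11.71). In gonadal ad libitum fat ASNS was high in dog 2 (9.80, next 8.57), and dog 6 was low for PDIA3 (11.23, next 11.40) and DNAJC3 (5.58, next 7.41) and high for PPP1R15A (11.62, next 10.25). Of these arrays, subcutaneous dog 4 and gonadal dogs 2 and 6 are among the 4 with transcripts of muscle or ciliated cells, and the part of those transcripts was not tested. CHAC1, which was not tested for lack of signal, stood at 5.42 in subcutaneous fat of ad libitum dog 2, above the highest control value of 2.70.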

How the results depend on the processing

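The limits are the small groups, tissue whose cell makeup varied, and 4 arrays with transcripts of other tissues. For feeding in gonadal fat and for the interaction 0 members passed in each alternative and each fit without 1 dog. For feeding in subcutaneous fat the 2 calls became 0 with no filter, with only the arrays of the comparison, without the 4 arrays and with the actin covariate, and 1 after quantile normalization. They numbered 0 to 3 without 1 dog. For depot in control dogs the 2 calls became 1 with no filter, 4 with the filter at log2 6, 0 with only the arrays of the comparison, without the 4 arrays and with the actin covariate, and 0 to 4 without 1 dog. With the dog as a replicate block they numbered 5 (random) and 4 (fixed). For depot in ad libitum dogs the 4 calls became 7 with the random block, stayed within 3 to 6 in the other settings and were 1 to 6 without 1 dog. The blocks changed no call for feeding, where the fixed block could not be fitted, or for the interaction. A fit with fewer arrays has fewer degrees of freedom, and the cause of each change was otherwise not tested. Of the values of single genes 602 kept direction and call, 49 lost the call, 22 gained it and 5 changed sign, all of them small: for feeding in gonadal fat ASNS ran from -0.012 (without dog 3) to 0.491 and DDIT3 from -0.26 to 0.049 (without dog 3) when 1 dog was left out, and for depot in ad libitum dogs XBP1 stood at -0.059 after centring and ran from -0.047 (without dog 2) to 0.037 when 1 dog was left out.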
